A study of Mus musculus with 10 samples.

Results

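The kinesin superfamily of the mouse was followed in tumour cells of malignant peripheral nerve sheath tumours (MPNST), sarcomas that arise in nerves, which had been grown as allografts. Its members were taken as the protein-coding genes whose symbol begins with Kif or Kifc and a digit, which gave 43 of the 46517 genes in the count tables. One of them, Kif1bp, encodes a protein that binds kinesins and has no motor, so 42 genes are kinesin motors. They were divided by known role into 13 mitotic kinesins, 15 transport kinesins and 14 others. The 10 libraries were GFP+ tumour cells and GFP- tumour cells sorted from 5 allograft models lettered A to E, 1 library of each population per model. The series title sets tumour cells with a transgene called CGD against those without it, and the sorted GFP+ and GFP- populations are read here as these classes. CGD is not spelled out. What drives the transgene, the genotype, age and sex of the animals, and how many animals or tumours stand behind a model are not stated in the labels. Per the labels, wild-type cells and dead cells had been gated out by flow cytometry.

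Kinesins are motor proteins that use ATP to walk along microtubules or to take microtubules apart at their ends. A set of them builds and moves the spindle, pushes chromosomes, and closes the cleavage furrow, and many of these are made mainly by dividing cells. Others carry vesicles, mitochondria and ciliary cargo in all cells, and some of these are abundant in neurons and glia, whose long processes depend on transport.

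Gene reads per library numbered 15978673 to 22082207, and levels are given as CPM, reads scaled to the library's gene total. The filter on low counts kept 13986 genes, among them 38 of the 42 motors. Kif2b, a mitotic kinesin gene, had 0 reads in all 10 libraries, an upper limit of 3 reads per library. Kif28 had 1 read in all, Kif12 at most 2 reads in a library, and Kif6 at most 26 reads, so these 4 genes were not tested. Defining genes of other cell types were low: Ptprc and Cd3e of leukocytes reached at most 0.453 and 0.108 CPM, Pecam1 of endothelium at most 1.31 CPM, and Hba-a2, Hbb-bt and Alas2 of red cells had no read. Summed over 6 leukocyte genes the level was 8.58 to 16.5 CPM in GFP+ cells and 7.6 to 20.8 CPM in GFP- cells, most of it Cd68. Summed over 5 endothelial genes it was 0.82 to 4.07 CPM in GFP+ and 0.38 to 3.32 CPM in GFP- cells. The erythroid sum was at most 0.434 CPM in the GFP+ libraries and at most 1.19 CPM in the GFP- libraries, and the sum of 5 neuronal genes was 5.27 to 36.2 CPM in GFP+ and 6.22 to 55.3 CPM in GFP- cells. The sum of 6 Schwann lineage genes was 2.95 to 236 CPM in GFP+ cells and 2.47 to 24.4 CPM in GFP- cells, and was higher in GFP+ cells in 5 of 5 pairs. That difference went with the GFP sort, and its part in the kinesin values was not tested.

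Per kilobase of exon, the scale on which genes can be compared with one another, transport kinesins were the most abundant motors. Kif1c, a vesicle motor, stood first at a mean of 30.2 CPM per kilobase over the 10 libraries, with a range of 22.9 to 37.7. Kif5b, the widely expressed conventional kinesin, followed at 18.6 (13.1 to 23.7) and Kif3a, a subunit of the kinesin-2 motor that builds cilia, at 17.3 (14.4 to 19.7). Within each of the 10 libraries Kif1c exceeded both Kif5b and Kif3a, most narrowly in GFP- cells of model E, at 22.9 against 19.3 for Kif5b. Kif5b and Kif3a changed order between libraries. The first mitotic kinesin was Kif20a at rank 5, with 11.7 CPM per kilobase and a range of 5.65 to 19.3. The next, Kif22, Kif2c and Kif18b, lay at 4.39, 4.20 and 4.10 CPM per kilobase and changed order between libraries.

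GFP+ cells were set against GFP- cells from their own tumour model, the paired comparison that the design text names. All 12 mitotic kinesins with enough reads had a higher fitted level in GFP+ cells. Their median log2 difference was 0.89 (range 0.56 to 1.09), while transport kinesins had a median of 0.15 and all tested genes a median of -0.0. The mitotic range depends on which genes are listed. Kif2a, a depolymerase of neurons and spindle poles, was counted among the others and differed by 0.14 (SE 0.1). Transport kinesins were split, with 12 fitted higher and 3 lower, and 49.3% of all tested genes were fitted higher. No kinesin passed the test across all genes: edgeR's quasi-likelihood test with the tumour model as a block called 0 of 38 motors and 0 of 13986 genes (0.0%) at an adjusted p under 0.05. Before adjustment, with p under 0.05 by that test, 11 of 12 mitotic and 2 of 15 transport kinesins were higher in GFP+ cells, against 5.50% of all tested genes, and 0 were lower, against 3.49%. DESeq2 with the same block, at an adjusted p under 0.05, called 5 of 12 mitotic kinesins and 0 of 15 transport kinesins, each call higher in GFP+ cells, against 1.03% of all genes called higher and 1.39% called in either direction. Of the others it called 1 gene, Kifc5b. The edgeR likelihood-ratio test also called 6 motors, against 1.1% of all genes called higher, so the calls depended on the tool. In sorted bulk RNA, fewer cells that express a gene and less RNA per cell cannot be told apart.

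**Figure D1:**
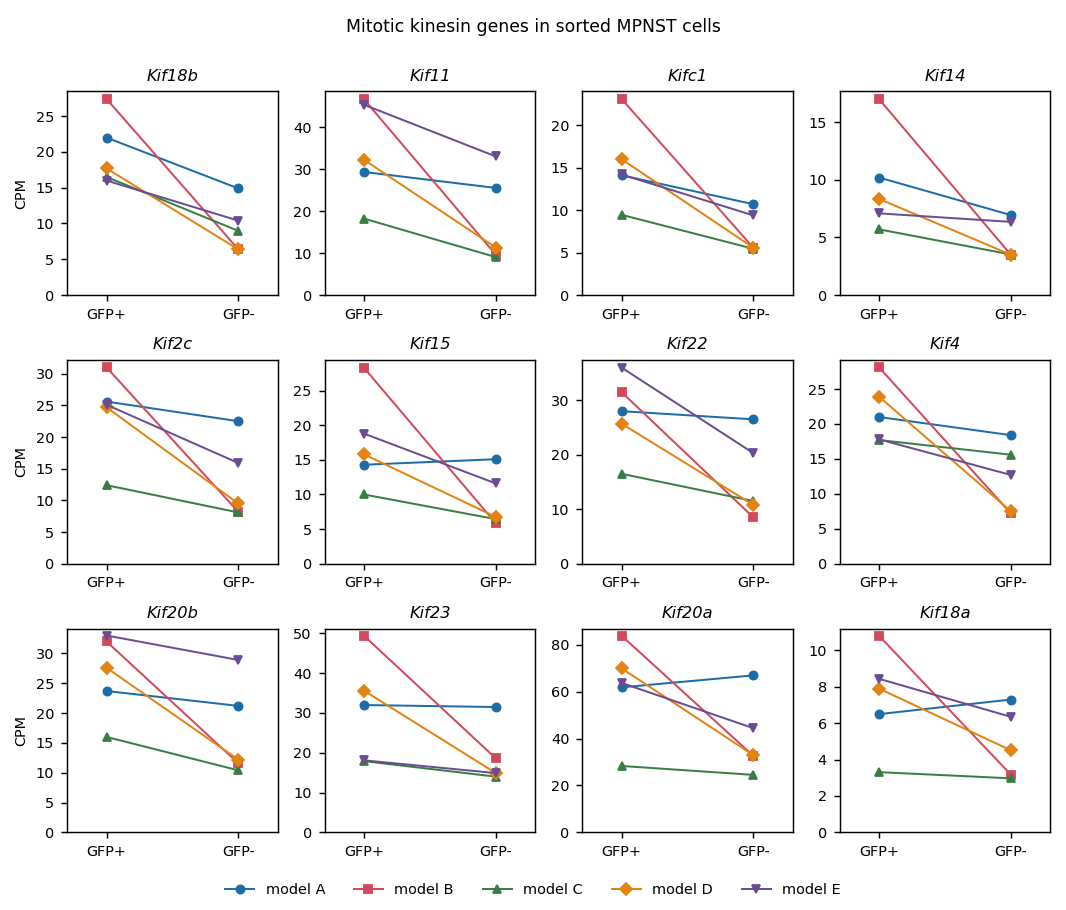
CPM of the 12 tested mitotic kinesin genes in each library, GFP+ on the left and GFP- on the right of every panel, with a line joining the populations of a tumour model. The lines of models B and D fall steeply toward GFP- cells in every panel, and those of model A are nearly level in most.

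The 3 largest mitotic differences were those of Kif18b, Kif11 and Kifc1, motors of microtubule ends and spindle poles. Kif18b, which trims the plus ends of astral microtubules (mm10 chromosome 11, 102905529 to 102925124), stood at 22, 27.4, 16.5, 17.7 and 16.0 CPM in GFP+ cells of models A to E, against 14.9, 6.39, 8.97, 6.38 and 10.4 CPM in GFP- cells. Its lowest GFP+ library exceeded its highest GFP- library, a separation shared by 1 other motor, Kif24, and seen higher in GFP+ cells in 0.122% of all tested genes. The log2 difference of Kif18b was 1.09 (SE 0.23; adjusted p = 0.329 by edgeR's quasi-likelihood test and 0.00225 by DESeq2).

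Kif11, the kinesin-5 that slides spindle poles apart (chromosome 19, 37376403 to 37421859), stood at 29.3, 46.6, 18.2, 32.2 and 45.3 CPM in GFP+ cells of models A to E, against 25.5, 9.60, 9.03, 11.3 and 33.0 CPM in GFP- cells. It was higher in GFP+ cells of every pair, though the groups overlapped, with GFP+ cells of model C below GFP- cells of models A and E (log2 1.04, SE 0.28; adjusted p = 0.393 by edgeR and 0.0147 by DESeq2). Kifc1, the minus-end-directed kinesin-14 that focuses spindle poles and clusters extra centrosomes (chromosome 17, 33875659 to 33890661), had 14.1, 23.1, 9.45, 16.0 and 14.2 CPM in GFP+ cells, against 10.7, 5.57, 5.45, 5.57 and 9.38 CPM in GFP- cells. Every pair was higher in GFP+ cells, and the groups overlapped because GFP+ cells of model C lay below GFP- cells of model A (log2 1.03, SE 0.25; adjusted p = 0.363 by edgeR and 0.0122 by DESeq2). Kif15, the kinesin-12 that works beside Kif11 at the spindle, averaged 17.4 ± 6.82 CPM in the GFP+ libraries against 9.15 ± 4.05 CPM in the GFP- libraries (SD, n = 5 each), with a log2 difference of 0.91 that was 0.59 without pair B. Kif2c, a depolymerase of centromeric microtubules, averaged 23.8 ± 6.86 CPM in GFP+ libraries against 12.9 ± 6.29 CPM in GFP- libraries, a log2 difference of 0.91 (SE 0.24; adjusted p = 0.379 by edgeR and 0.0224 by DESeq2). Kif18a, which damps chromosome movements at the metaphase plate, had the smallest mitotic difference, 0.56 (SE 0.28), and 0.28 without pair B.

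The chromokinesins, which bind chromosome arms, were higher in GFP+ cells in 5 of 5 pairs. Kif22 averaged 27.5 ± 7.27 CPM in GFP+ libraries against 15.5 ± 7.6 CPM in GFP- libraries (SD, n = 5 each) and differed by a log2 of 0.87 (SE 0.24; adjusted p = 0.393 by edgeR and 0.0296 by DESeq2). Kif4, which also limits the length of the central spindle, differed by 0.85 (SE 0.29). It had 17.7 CPM in GFP+ against 15.6 CPM in GFP- cells of model C, a pair log2 difference of 0.16, where Kif22 had 0.49.

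Kinesins of cytokinesis had fitted differences between 0.58 and 0.95. Kif23, the motor subunit of centralspindlin, stood at 32.0, 49.4, 17.9, 35.6 and 18.1 CPM in GFP+ cells of models A to E, against 31.5, 18.6, 14.0, 14.9 and 14.9 CPM in GFP- cells (log2 0.63, SE 0.22; adjusted p = 0.468 by edgeR). Kif20a, which carries the chromosomal passenger complex to the midzone, had 61.8, 83.8, 28.3, 69.9 and 63.7 CPM in GFP+ cells, against 66.9, 32.6, 24.5, 32.9 and 44.4 CPM in GFP- cells (log2 0.58, SE 0.21; adjusted p = 0.478 by edgeR). In model A the pair log2 differences were -0.01 for Kif23 and -0.14 for Kif20a, so the populations of that model were nearly level for both. Kif20b, which takes part in abscission, had a log2 difference of 0.68 (SE 0.20), with all 5 pairs higher in GFP+ cells. Kif14, which brings citron kinase to the midbody, had one of 0.95 (SE 0.30), which was 0.63 with pair B left out.

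Kif23 and Kif11 were not in the same proportion in all tumours. The ratio of Kif11 to Kif23 reads was 2.50 in GFP+ and 2.22 in GFP- cells of model E, and 0.516 to 1.02 in the other 8 libraries, a contrast chosen after its values were seen. Kif23 made up 5.96% of mitotic kinesin reads in GFP+ and 6.94% in GFP- cells of model E, and 10.4% to 15.4% elsewhere.

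**Figure D2:**
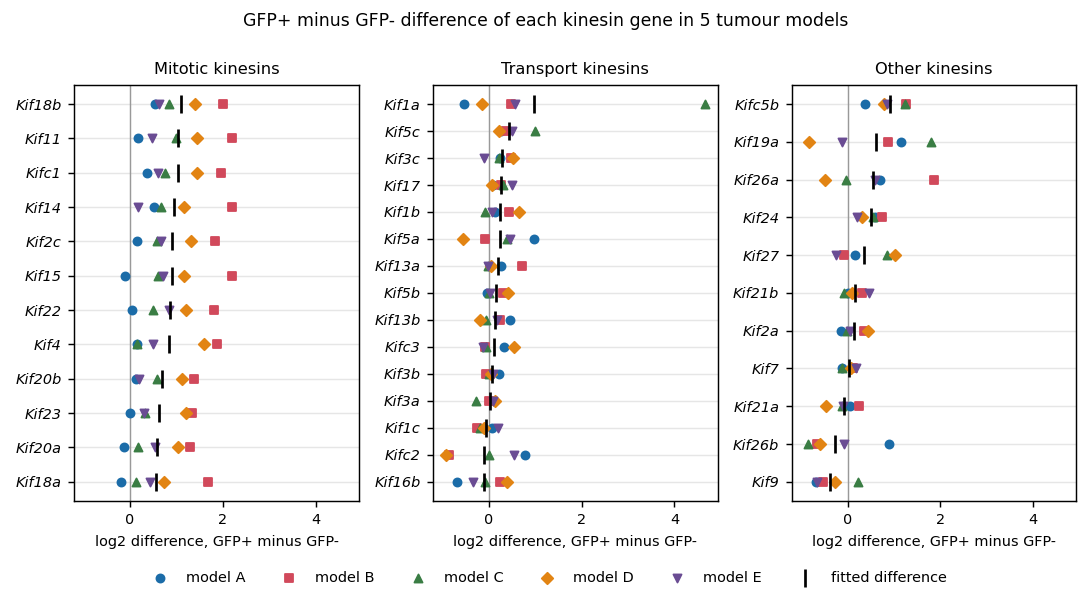
The log2 difference of GFP+ minus GFP- cells in each tumour model (coloured symbols) and the fitted difference over the 5 pairs (black bar) for the 38 tested motors, sorted within each class. Mitotic kinesins lie right of 0 except for 4 genes in model A, whereas transport and other kinesins lie on either side of it.

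The size of the mitotic difference varied among the 5 pairs. A pair is 1 GFP+ and 1 GFP- library, so tumour model and single library cannot be told apart. All 12 genes were read in these same libraries, so they are not independent of one another. The median pair log2 difference of the 12 genes came to 0.14 for model A, 1.86 for B, 0.59 for C, 1.20 for D and 0.52 for E. Pair B had the largest and pair D the second largest difference for all 12 genes, and pair A the smallest for 10. In A, 8 of 12 genes were higher in GFP+ cells, and in each other pair 12 of 12. Over the 5 pairs, 8 of the 12 were higher in GFP+ cells in every pair, against 5.11% of all tested genes, and 0 were lower in every pair, against 4.66%. Without pair B, 8 of the 12 were higher at an unadjusted p under 0.05, beside 534 of 13941 genes, and the median difference was 0.61. Without pair D, 7 of the 12 were, beside 546 of 13886 genes, and the median was 0.80. With all pairs the count over all genes was 769 of 13986. Xist, the RNA of the inactive X chromosome, also differed in the pairs with the largest mitotic differences. It stood at 0.111, 1049, 724, 103 and 567 CPM in GFP+ cells of models A to E, against 0.0514, 523, 615, 2.82 and 565 CPM in GFP- cells. It was near 0 in both populations of model A, and its part in the kinesin values was not tested. Top2a and Mki67, genes of cycling cells, followed the same order of pairs at the top: Top2a differed by 0.28, 2.38, 0.91, 1.61 and 0.73 in A to E and Mki67 by -0.18, 1.57, 0.31, 1.21 and 0.45.

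**Figure D3:**
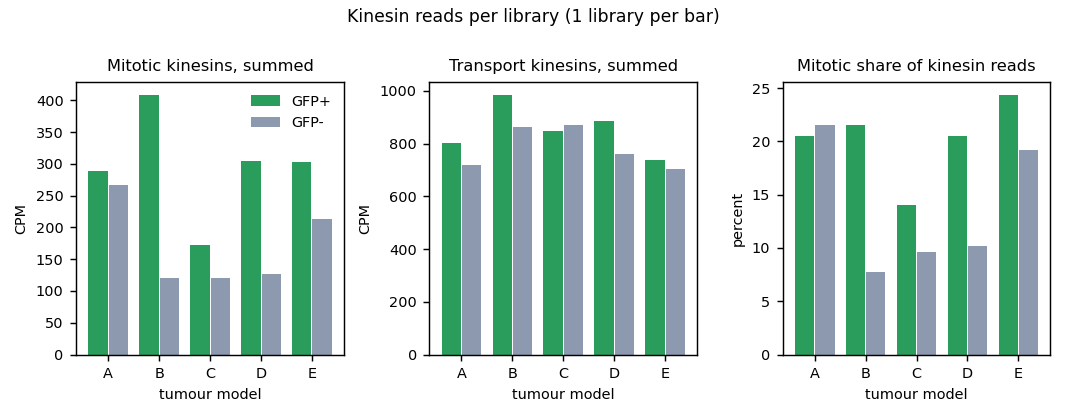
Summed CPM of the mitotic kinesins and of the transport kinesins, and the mitotic share of all kinesin motor reads in percent, for each library (1 library per bar, GFP+ left of GFP- in each tumour model). The mitotic share in GFP- cells is 7.78% to 10.2% in models B, C and D and 19.2% to 21.5% in A and E, while the transport sum stays between 702 and 986 CPM.

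Summed over the class, mitotic kinesins stood at 288, 409, 172, 305 and 303 CPM in GFP+ cells of models A to E, against 267, 121, 121, 126 and 214 CPM in GFP- cells. Transport kinesins stood at 803, 986, 848, 885 and 737 CPM in GFP+ cells, against 719, 863, 872, 759 and 702 CPM in GFP- cells. The mitotic sum was higher in GFP+ cells in all pairs, and GFP- cells of models A and E lay above GFP+ cells of model C. Mitotic kinesins took 20.2% ± 3.81 of the motor reads in GFP+ and 13.7% ± 6.23 in GFP- cells (SD, n = 5 each). Kif2a, with means of 89.8 CPM in GFP+ and 79.6 CPM in GFP- libraries, was not counted in the mitotic sum or share. In model A the share was 20.5% in GFP+ and 21.5% in GFP- cells, the pair in which it was not higher in GFP+ cells.

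The mitotic partners, a list of 10 genes whose products load, regulate or accompany these motors, had median pair log2 differences of 0.30, 1.65, 0.45, 1.17 and 0.64 in models A to E, again largest in B and next in D. All 10 had higher fitted levels in GFP+ cells (median log2 0.77), 0 passed by edgeR's quasi-likelihood test over all genes, and 10 were under an unadjusted p of 0.05, against 5.50% of all tested genes higher by that measure. DESeq2 called 6 of them, against 1.03% of all genes called higher. Cit, the citron kinase that Kif14 binds, averaged 59.9 ± 22.4 CPM in GFP+ libraries against 32.8 ± 13.4 CPM in GFP- libraries (SD, n = 5 each; log2 0.83, SE 0.14; adjusted p = 0.230 by edgeR). Prc1, which bundles the midzone microtubules that Kif4 walks on, averaged 66.3 ± 23.1 CPM in GFP+ against 29.2 ± 10.9 CPM in GFP- libraries (log2 1.15, SE 0.20; adjusted p = 0.261 by edgeR). Aurkb and Aurka, kinases that regulate several of these motors, differed by 1.18 (SE 0.28) and 0.94 (SE 0.23). Cenpe, named because it is a kinetochore kinesin whose symbol lies outside the naming rule, differed by 0.71 (SE 0.21).

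The promoters of the mitotic kinesins share short sequence elements that the naming rule did not use. Cell-cycle genes of the G2 and M phases often carry a cell-cycle homology region (CHR), here TTTGAA or its reverse complement TTCAAA, close to the start site, together with CCAAT boxes (CCAAT or ATTGG). Both strands were searched in RefSeq promoters of 300 bases (250 before and 50 after the start, GRCm38.p6), which were at hand for 33 of the 42 motors. The 12 mitotic promoters include that of Kif2b, the gene with no reads, and not that of Kif20a. A CHR was found in 10 of 12 mitotic promoters (83.3%), 1 of 12 transport promoters (8.33%), that of Kif1a, and 3 of 13 other kinesin promoters (23.1%), against 17.9% of all 32851 promoters. A CCAAT box was found in 8 of 12 mitotic promoters (66.7%) and 4 of 12 transport promoters (33.3%), against 37.4% of all. A CHR and a CCAAT box stood together in 7 of 12 mitotic promoters (58.3%), 0 of 12 transport promoters and 3 of 13 other kinesin promoters (23.1%), against 6.95% of all promoters. The E2F words TTTGGCGC, TTTCGCGC, TTTCCCGC and TTTGCCGC and their reverse complements were found in 2 of 12 mitotic promoters, Kif15 and Kif18a, and in 2.26% of all. No matches of different motifs overlapped in the kinesin promoters. A CHR with its first base within 30 bases of the start, a window chosen after the positions were seen, stood in 8 of 12 mitotic promoters (66.7%), 0 of 12 transport promoters, 2 of 13 other kinesin promoters (15.4%) and 3.19% of all. The 2 mitotic promoters without a CHR were those of Kif2b and Kif18a. A match is a description of these letters and shows no binding.

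The promoters of Kif18b (chr11:102925075-102925374, minus strand), Kif11 (chr19:37376132-37376431, plus), Kifc1 (chr17:33890584-33890883, minus), its near copy Kifc5b (chr17:26916841-26917140, plus) and, as a transport kinesin for contrast, Kif3b (chr2:153291166-153291465, plus) are shown 5′ to 3′ on the gene's strand, from RefSeq on GRCm38.p6. Capitals mark the CHR and CCAAT words found.
Kif18b: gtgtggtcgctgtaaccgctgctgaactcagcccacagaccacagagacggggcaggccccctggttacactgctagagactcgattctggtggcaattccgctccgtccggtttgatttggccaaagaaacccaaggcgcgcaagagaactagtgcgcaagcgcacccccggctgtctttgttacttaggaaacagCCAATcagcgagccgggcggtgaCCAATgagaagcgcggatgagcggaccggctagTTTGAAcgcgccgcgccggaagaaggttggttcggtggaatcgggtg
Kif11: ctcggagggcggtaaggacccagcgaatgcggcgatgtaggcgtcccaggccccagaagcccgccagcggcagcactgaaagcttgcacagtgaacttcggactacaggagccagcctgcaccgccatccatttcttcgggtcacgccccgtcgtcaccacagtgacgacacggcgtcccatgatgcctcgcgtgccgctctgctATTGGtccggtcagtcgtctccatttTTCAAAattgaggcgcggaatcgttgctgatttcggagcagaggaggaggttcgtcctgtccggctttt
Kifc1: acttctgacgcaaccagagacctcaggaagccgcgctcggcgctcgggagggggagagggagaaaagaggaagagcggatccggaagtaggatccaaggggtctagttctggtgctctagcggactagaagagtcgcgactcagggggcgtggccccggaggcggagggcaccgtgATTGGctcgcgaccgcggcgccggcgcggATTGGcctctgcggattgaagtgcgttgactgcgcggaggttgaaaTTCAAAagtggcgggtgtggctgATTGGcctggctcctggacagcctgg
Kifc5b: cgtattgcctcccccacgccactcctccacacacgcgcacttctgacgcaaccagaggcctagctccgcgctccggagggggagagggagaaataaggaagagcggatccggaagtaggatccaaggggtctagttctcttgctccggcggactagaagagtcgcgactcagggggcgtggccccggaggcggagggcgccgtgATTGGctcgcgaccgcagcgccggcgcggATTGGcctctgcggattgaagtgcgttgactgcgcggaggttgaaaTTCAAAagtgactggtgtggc
Kif3b: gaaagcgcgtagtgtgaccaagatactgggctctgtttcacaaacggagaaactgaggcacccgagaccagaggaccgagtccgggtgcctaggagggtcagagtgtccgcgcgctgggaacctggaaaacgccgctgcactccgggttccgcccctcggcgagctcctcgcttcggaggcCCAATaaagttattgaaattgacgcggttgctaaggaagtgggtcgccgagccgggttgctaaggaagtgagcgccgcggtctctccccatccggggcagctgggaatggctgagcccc
Positions are those of a match's first base, counted from 0 at the first transcribed base. In Kif18b the CHR begins at 3, behind CCAAT boxes at -53 and -30. In Kif11 a CHR at -19 follows a CCAAT box at -45, and in Kifc1 the CHR begins at 1, between CCAAT boxes at -74 and -45 and another at 24. In Kifc5b the CHR begins at 29, behind CCAAT boxes at -46 and -17. The Kif3b window holds a CCAAT box at -69 and no CHR.

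**Figure D4:**
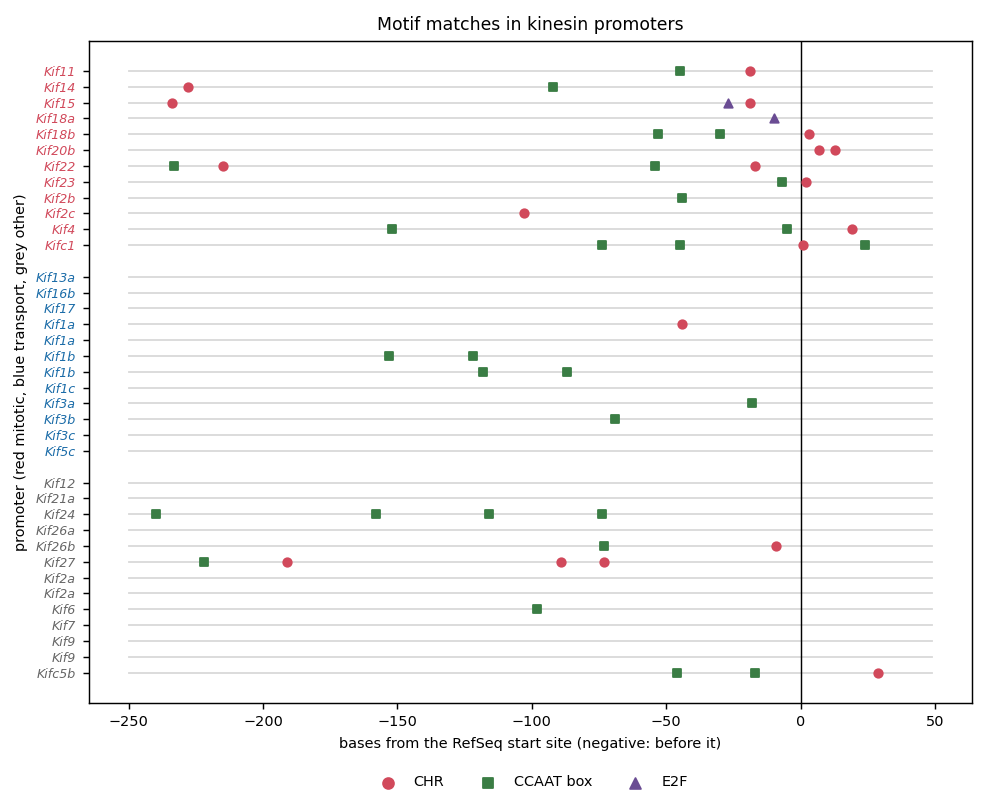
Positions of CHR, CCAAT box and E2F matches in 37 promoters of 33 kinesin motor genes, each a line from 250 bases before to 50 bases after the start site. CHR matches gather around the start site in mitotic promoters (red names), where 8 of 12 begin within 30 bases of it, and the transport promoters (blue names) hold 1 CHR match, in Kif1a.

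By edgeR's quasi-likelihood test Kifc5b (chromosome 17, 26917091 to 26932583), counted among the others, had the smallest p of all motors, though not by DESeq2. It stood at 6.45, 9.16, 4.07, 6.25 and 6.51 CPM in GFP+ cells of models A to E, against 4.83, 3.58, 1.65, 3.44 and 3.63 CPM in GFP- cells (log2 0.91, SE 0.19; adjusted p = 0.312 by edgeR and 0.0200 by DESeq2). GFP+ cells were higher in 5 of 5 pairs. Its transcripts share 36.6% of their 50-base words with those of Kifc1, and reads that map to several places are not counted, so the counts of both genes are uncertain. Kif24, a centriolar kinesin that restrains cilium formation, stood at 2.56, 3.67, 2.82, 2.69 and 2.85 CPM in GFP+ cells, against 1.64, 2.04, 1.87, 2.07 and 2.49 CPM in GFP- cells. The groups did not overlap, on 46 to 69 reads per GFP+ and 32 to 46 reads per GFP- library (log2 0.50, SE 0.19; adjusted p = 0.491 by edgeR and 0.705 by DESeq2).

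The widely expressed transport kinesins differed little between the sorted populations. Kif5b averaged 158 ± 21.8 CPM in GFP+ libraries against 140 ± 22.8 CPM in GFP- libraries (SD, n = 5 each, as for the means that follow). Kif1c averaged 217 ± 24.1 CPM in GFP+ against 223 ± 38.4 CPM in GFP- libraries. Kif3a averaged 63.4 ± 7.57 CPM in GFP+ against 60.9 ± 3.38 CPM in GFP- libraries, and the related subunit Kif3b 41.0 ± 5.45 CPM in GFP+ against 38.4 ± 5.76 CPM in GFP- libraries. In the paired fit the log2 differences were 0.15 (SE 0.09) for Kif5b and -0.06 (SE 0.09) for Kif1c. They were 0.02 (SE 0.08) for Kif3a and 0.07 (SE 0.08) for Kif3b. Kif1b, which carries mitochondria and synaptic vesicle precursors, averaged 157 ± 42.0 CPM in GFP+ against 131 ± 42.6 CPM in GFP- libraries (log2 0.24, SE 0.12; adjusted p = 0.591 by edgeR), and its difference was 0.14 without pair D. The endosome motors Kif13a and Kif16b differed by 0.20 (SE 0.12) and -0.10 (SE 0.17), with Kif13a at 0.07 without pair B and Kif16b at 0.04 without pair A. Kif13b averaged 23.1 ± 2.17 CPM in GFP+ against 20.6 ± 1.88 CPM in GFP- libraries, and the minus-end motor Kifc3 35.2 ± 10.2 CPM in GFP+ against 31.4 ± 9.04 CPM in GFP- libraries. Kifc2, the other minus-end transport motor, went both ways between models. Its pair log2 differences were 0.77 in A and 0.55 in E, and -0.85 in B and -0.92 in D, and its fitted difference of -0.10 was 0.10 without B and 0.12 without D.

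The transport kinesins with the smallest p were Kif5c and Kif3c, and neither passed after adjustment. Other motors of neurons had larger p: unadjusted values by edgeR's quasi-likelihood test were 0.18 for Kif17, 0.207 for Kif1a and 0.379 for Kif5a. The sum of 5 neuronal genes was higher in GFP+ cells in 2 of 5 pairs. Kif5c, a conventional kinesin abundant in neurons, stood at 8.56, 11.9, 2.12, 19.0 and 6.03 CPM in GFP+ cells of models A to E, against 6.99, 8.74, 0.991, 15.9 and 4.23 CPM in GFP- cells. It was higher in GFP+ cells of every pair, by less than the models differed among themselves (log2 0.44, SE 0.16; adjusted p = 0.478 by edgeR). Kif3c, a kinesin-2 subunit of nervous tissue, averaged 31.2 ± 8.92 CPM in GFP+ libraries against 24.6 ± 3.16 CPM in GFP- libraries (log2 0.28, SE 0.11; adjusted p = 0.524 by edgeR). Kif5a, the third conventional kinesin, averaged 3.69 ± 1.14 CPM in GFP+ against 3.25 ± 1.72 CPM in GFP- libraries and was higher in GFP+ cells in 3 of 5 pairs.

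Kif1a, the motor of synaptic vesicle precursors (chromosome 1, 93015464 to 93101951), split by tumour. In model B it had 29.9 CPM in GFP+ cells against 20.6 CPM in GFP- cells, and in model D 10.3 CPM in GFP+ cells against 11 CPM in GFP- cells. In model C it had 125 reads (6.79 CPM) in GFP+ cells against 3 reads (0.165 CPM) in GFP- cells. In A and E both populations had 2 to 6 reads. Its fitted log2 difference of 0.97 (SE 0.70; adjusted p = 0.722 by edgeR) rested on model C and was 0.15 without it.

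Whether kinesin levels differed among the 5 models was tested by an F test of the model terms in the same fit. Its yardstick is the spread of the GFP difference between models, since a model has 1 library of each population, so it compares these models and not independent animals. By edgeR's quasi-likelihood F test at an adjusted p under 0.05, 11 of 38 motors (28.9%) were called, against 54.7% of all tested genes. The calls were 5 of 15 transport, 6 of 11 other and 0 of 12 mitotic kinesins. Median pair log2 differences ran from 0.14 (A) to 1.86 (B) for mitotic and from -0.0 (C) to 0.25 (B) for transport kinesins. By this yardstick the 0 of 12 does not show that mitotic levels were alike among models. Without pair C 7 motors were called, and the count over all genes also fell, from 7655 to 4038. DESeq2's likelihood-ratio test called 19 of the 38 motors, 6 of them mitotic, against 60.0% of all genes.

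**Figure D5:**
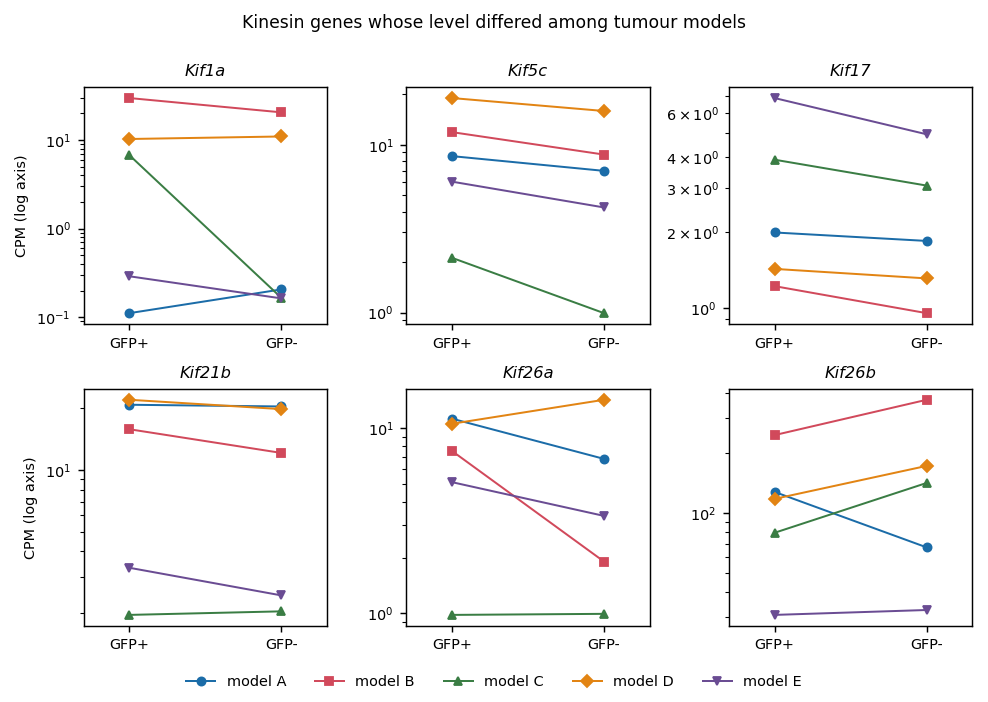
CPM on a log axis of 6 kinesin genes called different among models, in GFP+ cells (left of each panel) and GFP- cells (right), with a line for each tumour model. The order of the models is the same in both populations for Kif5c and Kif17, the line of Kif1a falls most steeply toward GFP- cells in model C, and that of Kif26b falls toward GFP- cells in model A alone.

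Kif21b, a neuronal kinesin that limits microtubule growth, had the smallest p among models of all motors. It stood at 20.8, 15.8, 1.96, 22 and 3.33 CPM in GFP+ cells of models A to E, against 20.4, 12.1, 2.04, 19.8 and 2.44 CPM in GFP- cells (adjusted p = 0.000341 for models by edgeR). Models A, B and D were high and C and E low in both populations. Its relative Kif21a was highest in model B, where GFP+ cells had 96.9 CPM and GFP- cells 77.8 CPM (adjusted p = 0.0136 for models by edgeR). Kif5c followed D, B, A, E and C in falling order in both populations (adjusted p = 0.000925 for models by edgeR). Kif17, a motor of dendrites and cilia, stood at 2, 1.22, 3.91, 1.43 and 6.9 CPM in GFP+ cells of models A to E, against 1.85, 0.951, 3.08, 1.31 and 4.94 CPM in GFP- cells (adjusted p = 0.00208 for models by edgeR). It was highest in E and lowest in B in both populations. The remaining transport calls were Kif1a, Kif1b and Kifc3, at adjusted p of 0.00583, 0.0155 and 0.0182 for models by edgeR.

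Kif26b, an atypical kinesin of WNT5A and ROR signalling (chromosome 1, 178529125 to 178939200), varied most in CPM among the others. It stood at 128, 247, 79.7, 118 and 30.8 CPM in GFP+ cells of models A to E, against 67.3, 372, 142, 173 and 32.6 CPM in GFP- cells (adjusted p = 0.00500 for models by edgeR). It was lower in GFP+ cells in 4 of 5 pairs and higher in A, where the pair log2 difference was 0.89. The fitted GFP difference was -0.27 (SE 0.24; adjusted p = 0.790 by edgeR), and -0.56 without pair A, -0.17 without B, -0.12 without C and -0.18 without D. Kif26a, its close relative, had pair log2 differences of 1.87 in B and -0.49 in D, and its fitted difference of 0.55 (SE 0.34) was 0.21 without B. Kif7, the ciliary tip kinesin of Hedgehog signalling, and Kif2a, a depolymerase of neurons and spindle poles, were called among models at adjusted p of 0.0119 and 0.0203 by edgeR. Kif7 averaged 4.98 ± 1.76 CPM in GFP+ against 4.79 ± 1.58 CPM in GFP- libraries, and Kif2a 89.8 ± 21.6 CPM in GFP+ against 79.6 ± 17.8 CPM in GFP- libraries (SD, n = 5 each). Kif9, Kif27 and Kif19a, motors linked to cilia, stayed at or under 4.02, 1.70 and 1.49 CPM. Kif9 had the lowest fitted difference of all motors, -0.39 (SE 0.22; adjusted p = 0.637 by edgeR), and was lower in GFP+ cells in 4 of 5 pairs.

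The partners of the transport motors, a list of 17 adaptors and related genes, differed little between GFP+ and GFP- cells. Of 16 tested, 9 were fitted higher and 7 lower (median log2 0.02), and 0 passed by edgeR's quasi-likelihood test, against 0.0% of all tested genes. By that test 0 were under an unadjusted p of 0.05, against 5.50% of all tested genes higher and 3.49% lower. On 16 genes a count of 0 lies near those shares. Trak2, which ties kinesin-1 to mitochondria, had the smallest p (log2 0.23, SE 0.10), followed by Kifap3 (-0.15, SE 0.09), the cargo subunit of kinesin-2, and the light chain gene Klc4 (-0.17, SE 0.11). Kif1bp, which the naming rule takes in, averaged 53.8 ± 13.7 CPM in GFP+ libraries against 50.4 ± 18.3 CPM in GFP- libraries (SD, n = 5 each) and was called among models (adjusted p = 0.00185 by edgeR).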

How the data were processed

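Raw counts per gene of 10 libraries were deposited by the authors, in the layout of STAR's gene counts. Per the submitters' processing notes, STAR 2.4.2.8 and mm10 were used. Neither the annotation nor the strand protocol is stated in the labels. Column 4 was used, since it took 96.9% to 97.1% of stranded gene reads. The 4 summary lines (21.3% to 24.3% of reads) were left out. Symbols, coordinates and merged exon lengths came from GENCODE M21 (46005 of 46517 identifiers matched), which uses the mm10 assembly. CPM used library totals. Pair differences used TMM-scaled log2 CPM with a prior count of 2.

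The main test was edgeR 4.0.16 quasi-likelihood (R 4.3.3), TMM scaling, filterByExpr, tumour model as block, two-sided, with Benjamini-Hochberg adjustment over 13986 genes. Each SE is the size of the fitted log2 difference divided by the square root of that test's F statistic. Libraries of the same model letter come from the same tumour model, which pairs them, and their deviations from population means correlated at 0.628 to 0.867 within pairs. Whether models are separate animals is not stated, so p-values measure the spread between these tumours. Alternatives were DESeq2 1.42.0, limma 3.58.1 voom, edgeR's likelihood-ratio test, other scalings, filters and strand use, no block, and leaving out each pair. The pipeline was also run on simulated counts in which a changed gene had the same GFP fold change in every model. The pairs here differed in size, so that run cannot show how the tests behave with such pairs. Members, lists, motifs and tests were chosen with earlier results of these data known. Named were all tested mitotic and transport kinesins, the other tested kinesins, partner genes of smallest p, and Mki67 and Top2a. No list was given a test.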

Additional observations from a re-analysis of the deposited data

Results flagged for a closer look

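The following levels stood apart from the other 4 libraries of their population, by Dixon's criterion on the gap to the nearest library. Kif23 was 31.5 CPM in GFP- cells of model A, where the next library had 18.6 CPM. Kif21a was highest in model B in both populations: GFP+ cells had 96.9 CPM with the next library at 52.7 CPM, and GFP- cells had 77.8 CPM with the next at 56.8 CPM. Kif9 was 4.02 CPM in GFP+ cells of model C, where the next had 1.86 CPM. Kif24 was 3.67 CPM in GFP+ cells of model B, where the next had 2.85 CPM. These are 5 of 76 groups examined, and chance sets apart about 1 group in 20. Kif21a is the gene that stood apart in the same model in both populations.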

How the results depend on the processing

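The number of genes called between GFP+ and GFP- cells was 0 as reported and 0 without the replicate block, with RLE factors, library totals only, a stricter filter, limma voom, counts without regard to strand, or any pair left out. It was 47 with no filter, 195 by DESeq2 and 206 by edgeR's likelihood-ratio test, and kinesins called numbered 6 by DESeq2, 6 by the likelihood-ratio test and 0 in the other settings. Without the replicate block the mitotic median was 0.83 and 8 of 12 mitotic kinesins were higher at an unadjusted p under 0.05, beside 137 genes higher and 53 lower of all 13986. With pairs left out in turn the mitotic median ranged from 0.61 to 1.07 and the transport median from 0.06 to 0.17. Motors called among models numbered 17 with no filter (8224 of all genes), 19 by DESeq2 (8398) and 22 by the likelihood-ratio test (9067), and 7 to 16 with a pair left out; for all genes the last range was 4038 to 7545, lowest for both without pair C. The voom fit and the fit without the block gave no test among models. Per kilobase of exon the mitotic share was 26.1% in GFP+ and 17.8% in GFP- cells. Signs turned for 5 uncalled genes near 0: Kif7 was -0.01 without regard to strand and -0.03 to 0.06 with pairs left out (-0.00189 without B), Kif16b -0.22 to 0.04, Kif3a -0.02 to 0.09 (-0.01 without A or D), Kifc2 -0.33 to 0.12 (0.10 without B) and Kif21a -0.16 to 0.02. The causes were not tested. At an unadjusted p under 0.05 edgeR's quasi-likelihood test gave 769 genes higher and 488 lower. Of 168 values for mitotic kinesins under the alternatives, 0 turned sign. Kif1a was not kept by the filter without pair B or D. Depth limits the lowest genes most: Kif1a had 2 to 6 reads per library in models A and E, and its pair differences there rest on these.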
